A study of Homo sapiens with 24 samples.

Results

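The comparison set 4 RNA-seq libraries of *CTNNB1* knock-out (KO) HT29 cells against 4 libraries of *CTNNB1* KO SW480 cells, and asked how these colorectal carcinoma (CRC) cell lines differed from each other when neither had an intact *CTNNB1* gene. The members, 8 of the 24 libraries of the series, were chosen by the cell line and genotype on their sample labels and by no measured value. In all 8, *CTNNB1*, which encodes β-CATENIN, had been inactivated by deleting exon 7 on both alleles with CRISPR/Cas9, so that the reading frame shifts and ends early. The HT29 KO libraries came from clones 28 and 38, and the SW480 KO libraries from clones 17 and 21. Each clone was sequenced in replicates A and B, called rounds here. Wild-type (WT) HT29 clones 11 and 40 and WT SW480 clones 4 and 5, also in rounds A and B, gave the same line comparison with *CTNNB1* intact. All cells were kept in the same serum-containing medium. Each cell line is thus represented by 2 clones per genotype, and the p-values given here measure the spread among 4 libraries of 2 clones.

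In the canonical WNT pathway, a destruction complex built around APC and AXIN marks cytoplasmic β-CATENIN for degradation. WNT ligands inhibit this complex, whereupon β-CATENIN enters the nucleus and activates target genes together with TCF/LEF factors. HT29 and SW480 cells both carry truncating *APC* mutations, which keep the pathway active without ligand. β-CATENIN also ties E-CADHERIN to the actin cytoskeleton at adherens junctions, a task that γ-CATENIN can take over. Epithelial cells are held together by tight junctions, adherens junctions and desmosomes, whereas mesenchymal cells produce VIMENTIN and matrix proteins. Factors of the ZEB and SNAIL families repress epithelial genes by binding E-box motifs in their promoters.

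The values are normalized read counts: the count of each gene, after division by the size factor of its library. Values of single libraries are listed in the order 28 A, 28 B, 38 A and 38 B for HT29 KO cells and 17 A, 17 B, 21 A and 21 B for SW480 KO cells. Reads assigned to genes numbered 24832650 to 28437413 in the KO libraries and 22297049 to 27982576 in the WT libraries. The shallowest KO library was HT29 KO 38 B, in which 1 read counts as 1.30 normalized reads, against 0.917 to 1.01 in the other KO libraries. Of the epithelial marker list, *EPCAM*, *CDH1* and keratin genes included, the summed level was 494200 to 786000 normalized reads in HT29 KO libraries and 154100 to 178100 in SW480 KO libraries. The 17 measured markers of leukocytes, endothelium, fibroblasts, muscle, erythroid cells and liver summed to 310.8 to 1312 in HT29 KO and 754.2 to 849.7 in SW480 KO libraries, with 4 of them at 0 in all libraries of each line. *MS4A1* was at 0 in both lines, *PTPRC*, *DCN* and *ALB* were at 0 in HT29 KO libraries, and *CD3D*, *CD3E* and *COL3A1* were at 0 in SW480 KO libraries. Most of the HT29 KO reads from this list, 2235, belonged to *LUM*, which encodes a collagen-binding proteoglycan. The part of these markers in the results was not tested.

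The targeted gene *CTNNB1* (GRCh37, chr3:41236232-41301587, plus strand) was lower in HT29 KO than in SW480 KO cells. It had 256, 293, 313 and 337 normalized reads in the HT29 KO libraries and 839, 840.4, 1106 and 1312 in the SW480 KO libraries. Every HT29 KO library lay below every SW480 KO library. The difference between the lines was -1.75 ± 0.19 (log2, HT29 minus SW480, ± SE) and passed the test (limma, Benjamini-Hochberg adjusted p = 6e-05). WT cells had 6021 ± 99.3 normalized reads in HT29 and 46967 ± 4376 in SW480 (mean ± SD, n = 4 libraries each), so that the KO libraries of each line were below the WT libraries. The line difference was smaller in KO than in WT cells, by 1.21 ± 0.20 on the log2 scale (adjusted p = 0.00055). These counts include reads from all exons and therefore do not measure functional β-CATENIN.

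Of 16370 genes tested in KO cells, 2650 (16.2%) were higher in HT29 and 3976 (24.3%) were higher in SW480. A gene was called when its limma adjusted p was under 0.05 and its line difference exceeded 1 on the log2(value + 1) scale. Genes were tested when at least 4 of the 8 libraries held 10 or more normalized reads. A gene under 10 in all libraries of 1 line thus passed only by being higher in the other, which fixed its direction. The median difference of all tested genes was -0.09. In such bulk libraries, fewer expressing cells and less RNA per cell cannot be told apart. In WT cells, 2410 of 16275 genes (14.8%) were higher in HT29 and 4058 (24.9%) in SW480. The groups did not overlap, meaning that all 4 libraries of one line exceeded all 4 of the other, for 4081 genes with HT29 KO higher (24.9%) and 5263 genes with SW480 KO higher (32.2%). The called genes differed strongly: the median difference was 1.85 among genes higher in HT29 and -2.77 among genes higher in SW480. A difference above 5 in size was found in 399 and 945 of them, respectively. In 127 of the genes higher in HT29 KO cells, all 4 SW480 KO libraries had 0 reads, and in 408 of the genes higher in SW480 KO cells all 4 HT29 KO libraries had 0 reads. Between single clones, the difference exceeded 1 in all 4 pairings of an HT29 with an SW480 clone for 1790 (67.5%) of the genes higher in HT29 and 3127 (78.6%) of those higher in SW480.

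Most line differences of KO cells were also present in WT cells. Of the genes higher in HT29 KO, 1623 (61.2%) were also called higher in HT29 WT cells, 776 were tested there and not called, 209 were too low to test and 42 were higher in SW480 WT cells. Of the genes higher in SW480 KO, 2827 (71.1%) were also called higher in SW480 WT cells and 34 went the opposite way. In WT cells 688 were not called, and 427 were not tested for the same reason. Whether the line difference itself changed with the genotype was tested as the difference of differences, that is the KO line difference minus the WT line difference. It was called for 2014 of 17719 genes: 998 (5.63%) were positive, with HT29 relatively higher in KO cells, and 1016 (5.73%) were negative. All 42 and all 34 genes that reversed between the genotypes were among them. The shares of 5.63% and 5.73% over all genes are the background for the differences of differences counted in each list below. Of the 1027 genes called higher in HT29 in KO and not in WT cells, only 257 had a called difference of differences, and of the 1149 such genes higher in SW480, only 404. For the others a difference between the genotypes was not shown. With the libraries of each clone summed, which leaves 2 samples per group, 444 differences of differences were called. Of the 55 called ones named in this report besides that of *CTNNB1*, 34 were not called in this fit. They included *AXL*, *CEACAM6*, *TIMP3*, *L1CAM*, *KRT7*, *APCDD1*, *CDCA7*, *CXCR4*, *NNMT*, *PLAU*, *ITGB6*, *DUSP6* and *BAMBI*. The others were *CLDN7*, *CLDN4*, *LGALS4*, *SPARC*, *KLF5*, *REG4*, *KRT19*, *KRT5*, *KRT81*, *HOXB9*, *FZD1*, *NKD1*, *CD44*, *DACH1*, *IFI27*, *IRF1*, *CCND2*, *CDKN1A*, *ITGA3*, *ERBB2* and *EGFR*. Among the genes called the same way in both genotypes, the difference was larger in KO cells for 108 and smaller for 126 of the HT29-higher genes, and larger for 253 and smaller for 194 of the SW480-higher genes. Across the 15504 genes tested in both genotypes, the KO and WT line differences correlated with Spearman's rho = 0.838 and Pearson's r = 0.896, a description across genes, which are not independent replicates.

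**Figure D1:**
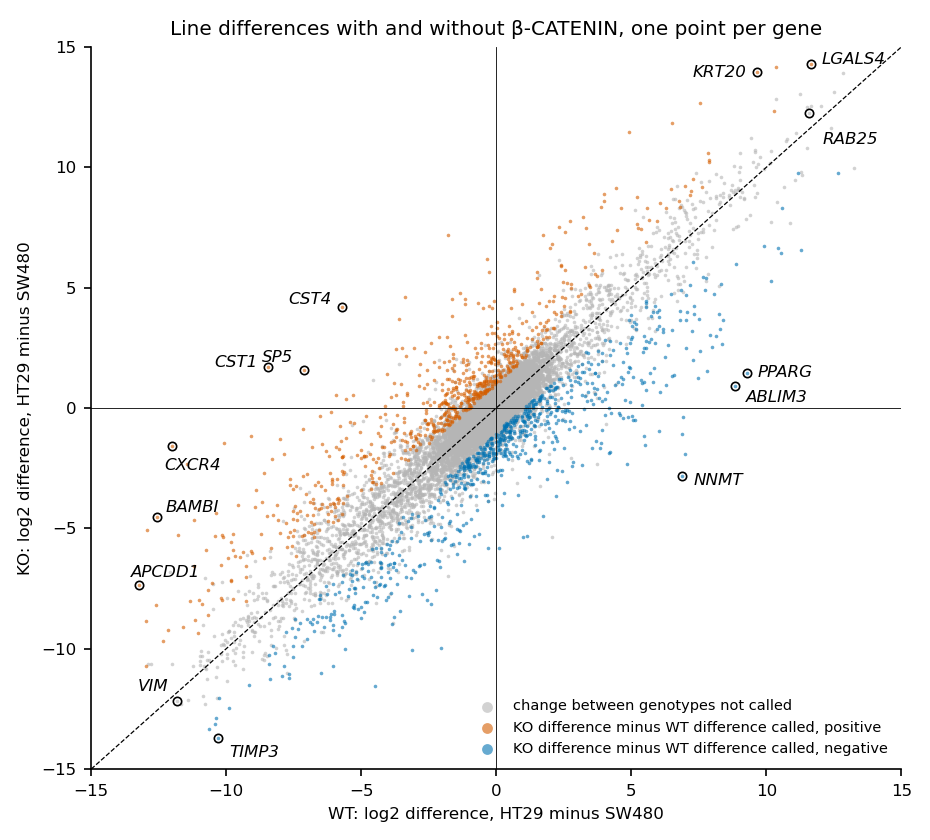
Line difference (HT29 minus SW480, log2) of every gene tested in both genotypes, with WT cells on the x axis and KO cells on the y axis, and orange or blue points where the difference of differences was called positive or negative. The 15504 genes spread along the diagonal, with *VIM* and *RAB25* far out near it, while *CST1*, *CST4*, *SP5* and *PPARG* lie off the diagonal.

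Genes of epithelial cell junctions were higher in HT29 KO cells. Of 43 tested members of the list, 31 (72.1%) were higher in HT29, 0 were higher in SW480 and 12 were not called, with a median line difference of 4.00. Over all tested genes, 16.2% were higher in HT29 and 24.3% in SW480. Without clone 28, 2 members were called higher in SW480, and 1 without clone 38, library 28 A or library 28 B. *CDH1* (GRCh37, chr16:68771195-68869440, plus strand), which encodes the adherens junction protein E-CADHERIN, had 17544, 18417, 7339 and 5859 normalized reads in HT29 KO and 55.5, 45.9, 45.8 and 28.8 in SW480 KO libraries. The HT29 clones differed from each other, clone 28 being higher than clone 38, but all 4 libraries exceeded every SW480 KO library (difference 7.95 ± 0.41, adjusted p = 5.8e-07). *EPCAM*, the gene for an epithelial adhesion molecule, had normalized read counts of 21569, 19419, 23239 and 48704 in HT29 KO and 967, 971, 688 and 645 in SW480 KO libraries. Library 38 B stood above the other HT29 KO libraries, and the groups did not overlap (log2 difference 5.03 ± 0.30, adjusted p = 1.5e-06). *MAL2*, which serves apical transport, had 35317, 34829, 21122 and 26975 normalized reads in the HT29 KO libraries and 32.9, 36.7, 1.87 and 4.80 in the SW480 KO libraries. *SPINT2*, which encodes an inhibitor of membrane serine proteases, had 41268, 36133, 21059 and 40902 normalized reads in HT29 KO and 4224, 4573, 5223 and 5319 in SW480 KO libraries. Both were higher in all HT29 KO libraries, with differences of 11.23 ± 0.80 (adjusted p = 4.5e-06) and 2.81 ± 0.22 (adjusted p = 9.4e-06). *GRHL2*, a transcription factor that maintains epithelial gene expression, had normalized read counts of 1611, 1895, 1071 and 591 in HT29 KO and 0, 0.917, 2.80 and 0 in SW480 KO libraries. Its SW480 KO libraries held at most 2.80 normalized reads, and the difference was 9.49 ± 0.53 (adjusted p = 1e-06). *CLDN4*, a tight junction claudin, was the most abundant member that was not called, with 12062, 10987, 6028 and 9156 normalized reads in the HT29 KO libraries and 6347, 7014, 7285 and 7376 in the SW480 KO libraries (difference 0.40 ± 0.21, adjusted p = 0.13). In WT cells, 32 of 41 tested junction genes were higher in HT29 and 2 were higher in SW480, and the difference of differences was positive for 6 and negative for 5. In KO cells, 2 junction genes were higher in SW480 when clone 28 was left out, and 1 when clone 38 was left out.

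The promoters of 3 junction genes are shown because a short E-box motif, CAGGTG or its reverse complement CACCTG, recurs in them and because the line differences of these genes were large. The sequences are from RefSeq, build GRCh38.p14, run from 250 bases before to 50 bases after the annotated start, read 5′ to 3′ on the gene's strand, and have each motif match in capitals. *RAB25* (chr1:156060910-156061209, plus strand), *CRB3* (chr19:6464021-6464320, plus strand) and *CLDN7* (chr17:7262429-7262728, minus strand) read as follows.
RAB25: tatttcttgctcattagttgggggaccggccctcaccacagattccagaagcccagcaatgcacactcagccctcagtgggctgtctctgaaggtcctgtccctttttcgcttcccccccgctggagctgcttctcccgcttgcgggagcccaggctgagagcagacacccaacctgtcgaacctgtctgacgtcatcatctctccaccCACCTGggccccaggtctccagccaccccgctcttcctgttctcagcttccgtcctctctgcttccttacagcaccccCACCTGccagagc
CRB3: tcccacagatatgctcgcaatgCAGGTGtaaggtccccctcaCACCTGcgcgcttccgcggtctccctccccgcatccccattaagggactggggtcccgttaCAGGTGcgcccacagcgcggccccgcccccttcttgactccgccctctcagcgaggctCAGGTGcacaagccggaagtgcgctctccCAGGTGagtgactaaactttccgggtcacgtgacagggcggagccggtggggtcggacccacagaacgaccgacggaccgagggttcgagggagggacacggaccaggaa
CLDN7: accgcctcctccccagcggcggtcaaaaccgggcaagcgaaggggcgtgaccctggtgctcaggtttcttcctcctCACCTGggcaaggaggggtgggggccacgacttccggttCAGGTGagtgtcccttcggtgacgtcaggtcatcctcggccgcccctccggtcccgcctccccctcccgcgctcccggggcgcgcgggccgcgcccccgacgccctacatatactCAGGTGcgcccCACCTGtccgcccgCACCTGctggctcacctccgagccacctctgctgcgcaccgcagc
The motif occurred 2 times in the *RAB25* window and 5 times each in the *CRB3* and *CLDN7* windows. In 35116 promoter windows of the same length, 20.6% held it on either strand. Of the junction genes, 23 had a promoter in the table and 14 of these (60.9%) held it, as did 11 of 16 (68.8%) among those higher in HT29 KO cells and 4 of 15 (26.7%) among mesenchymal genes higher in SW480 KO cells. A match describes the letters of the window and does not show a bound site.

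*RAB25*, the gene of an epithelial small GTPase of the recycling endosome, had 5139, 4259, 3713 and 6751 normalized reads in HT29 KO and 0 in all 4 SW480 KO libraries. Against a floor of 3 reads over the 4 SW480 KO libraries it was at least 7058-fold higher in HT29 (adjusted p = 6.6e-09). *CRB3*, which encodes an apical polarity protein, had normalized read counts of 755, 772, 775 and 1069.6 in HT29 KO and 7.52, 4.59, 3.74 and 0.960 in SW480 KO libraries. *CLDN7*, another claudin, had 3203, 2786, 3204 and 4693 normalized reads in the HT29 KO libraries and 149.6, 161, 303 and 274 in the SW480 KO libraries. For both genes every HT29 KO library was above every SW480 KO library, by 7.51 ± 0.43 (adjusted p = 1.1e-06) and 4.00 ± 0.28 (adjusted p = 3.7e-06). In WT cells the line difference of *RAB25* was 11.58 ± 0.27 and that of *CRB3* was 5.94 ± 0.36, and neither changed detectably with the genotype (difference of differences 0.66 ± 0.36 and 1.57 ± 0.58, adjusted p = 0.26 and 0.09). The line difference of *CLDN7* was smaller in KO cells (difference of differences -1.81). That call was lost with clone as a random effect (limma, adjusted p = 0.056) and with the libraries of a clone summed (0.32).

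Mesenchymal genes showed the opposite direction. Of 31 tested genes of the mesenchymal and EMT (epithelial-mesenchymal transition) list, 25 (80.6%) were higher in SW480 KO, 1 (3.23%) was higher in HT29 KO and 5 were not called. The median line difference was -5.75. Over all tested genes, the shares were 24.3% and 16.2%. With a value of at least 10 required in every KO library, 8 were called higher in SW480. *VIM* (GRCh37, chr10:17270240-17279592, plus strand), encoding the intermediate filament VIMENTIN, had 10.1, 5.87, 0 and 14.3 normalized reads in HT29 KO and 25749, 29059, 27013 and 25328 in SW480 KO libraries. HT29 KO libraries were far below SW480 KO libraries, with a difference of -12.16 ± 0.75 (adjusted p = 1.8e-06). The repressors of epithelial genes differed in the same way: *ZEB1* had normalized read counts of 7.04, 3.91, 10.4 and 3.89 in HT29 KO and 1619, 1540.4, 1191 and 1415 in SW480 KO libraries (difference -7.71 ± 0.31, adjusted p = 1.3e-07). *SNAI2* had 0 normalized reads in all 4 HT29 KO libraries and 1231, 1243, 807 and 879 in the SW480 KO libraries. It was at least 1312-fold higher in SW480 KO cells (adjusted p = 1.3e-08). *FN1*, the gene of the matrix protein FIBRONECTIN, had 45.3, 39.1, 60.7 and 41.5 normalized reads in the HT29 KO libraries and 7113, 7217, 7996 and 7214 in the SW480 KO libraries (log2 difference -7.29 ± 0.16, adjusted p = 8.2e-09). *AXL*, a receptor tyrosine kinase gene, had 12.1, 13.7, 43.6 and 19.4 normalized reads in HT29 KO and 16666, 17184, 11482 and 12369 in SW480 KO libraries (log2 difference -9.44 ± 0.37, adjusted p = 1.2e-07). The exception was *TAGLN*, an actin-binding protein gene of smooth muscle, with low counts of normalized read counts of 85.5, 74.4, 88.2 and 79.1 in HT29 KO and 34.8, 21.1, 36.4 and 32.6 in SW480 KO libraries (log2 difference 1.39 ± 0.24, adjusted p = 0.0012). *MSN*, which encodes the membrane-cytoskeleton linker MOESIN, was the most abundant member not called, at 12522, 13474, 23425 and 8183 normalized reads in the HT29 KO libraries and 24727, 24359.8, 20952 and 22647 in the SW480 KO libraries. HT29 library 38 A lay within the range of the SW480 KO libraries (log2 difference -0.79 ± 0.28, adjusted p = 0.04), and without it *MSN* was called lower in HT29 (-1.05). Without clone 28, 3 genes of the list were higher in HT29, and 2 without library 28 A or 28 B.

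In WT cells, 23 of 28 tested mesenchymal genes were higher in SW480 and 2 were higher in HT29. The difference of differences was negative for 6 genes of the list and positive for 0 at this threshold. *SNAI2* was one of them: its mean was 52.8 ± 27.0 in SW480 WT libraries (SD, n = 4) and 0 in HT29 WT libraries, and its line difference was larger in KO cells (difference of differences -4.39 ± 0.45, adjusted p = 6.2e-06). *AXL* was another, with means of 98.0 ± 85.5 in HT29 WT and 4347 ± 868 in SW480 WT libraries and a difference of differences of -3.60 ± 0.69 (adjusted p = 0.002). With edgeR on the recovered reads, the difference of differences of *SNAI2*, whose HT29 libraries all had 0 reads, was not called (adjusted p = 1). For *VIM* and *ZEB1* no change with the genotype was detected (-0.33 ± 0.83 and -0.94 ± 0.41, adjusted p = 0.84 and 0.16).

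**Figure D2:**
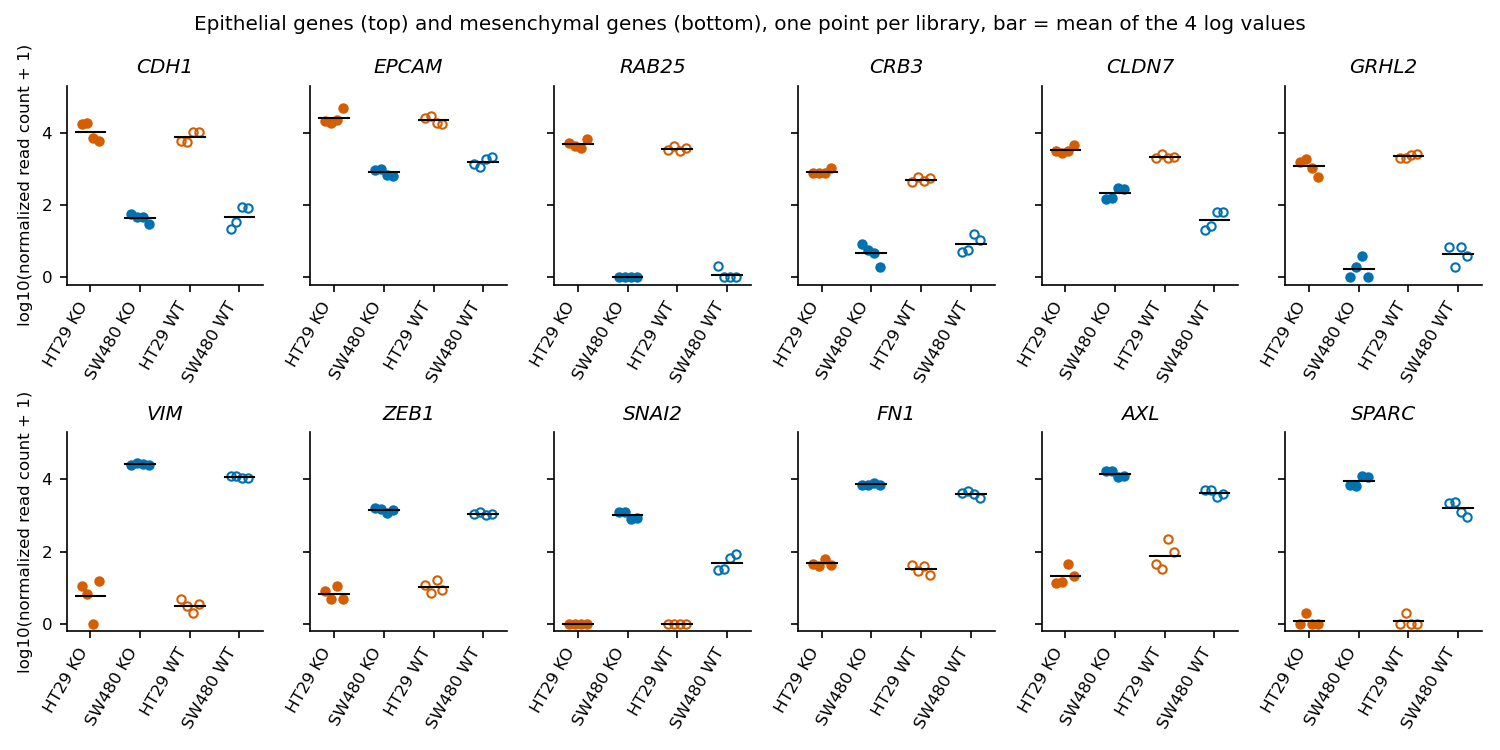
Normalized read counts of 6 epithelial and 6 mesenchymal genes in the 16 KO (filled) and WT (open) libraries on a log10(value + 1) axis, with 1 point per library and a bar at the mean of the 4 log values of each group. HT29 KO and SW480 KO points do not overlap for any of the 12 genes, with *RAB25* at 0 in SW480 KO and *SNAI2* at 0 in HT29 KO libraries.

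The genes named next had the largest differences among called genes with non-overlapping libraries and a mean of at least 500 normalized reads in the higher line, 10 in each direction. Toward HT29, they included secreted, mucosal and membrane proteins. *LGALS4* (GRCh37, chr19:39292311-39303585, minus strand), which encodes the gut lectin GALECTIN-4, had 32433, 27378, 30874 and 34041 normalized reads in HT29 KO and 0, 0, 0.934 and 1.92 in SW480 KO libraries. The SW480 KO libraries held 3 reads in all, and the ratio was 43700-fold (95% counting interval 14950 to 211900, which covers counting error only; adjusted p = 1.3e-08). *AGR2*, the gene of a disulfide isomerase needed for mucin folding, had normalized read counts of 23108, 16907, 13361 and 23166 in HT29 KO and 0 in all 4 SW480 KO libraries. *KRT20*, a keratin of differentiated intestinal cells, had 21316, 17208, 18008 and 9565 normalized reads in the HT29 KO libraries and 0 in all 4 SW480 KO libraries. Both were absent from the SW480 KO counts, giving differences of at least 27200-fold (adjusted p = 2.7e-09) and at least 23490-fold (adjusted p = 6.6e-09). *TSPAN8*, a tetraspanin gene, had 5597, 4574, 20718 and 52525 normalized reads in HT29 KO and 0.941, 0, 0 and 3.84 in SW480 KO libraries, so that the HT29 clones differed while the groups stayed apart (log2 difference 12.85 ± 0.84, adjusted p = 2.7e-06). The other leading genes were *TM4SF4*, a tetraspanin-related membrane protein, the annexin *ANXA10*, the glutathione peroxidase *GPX2*, the adhesion molecule *CEACAM6*, the mucin-type glycosyltransferase *GCNT3* and the secretory pathway gene *TMED3*. Their mean levels ranged from 6081 ± 1639 (*TMED3*) to 26279 ± 6713 (*GPX2*) in HT29 KO libraries, and no SW480 KO library exceeded 6.72 normalized reads for any of them. *CEACAM6* belongs to a family of near-identical genes, and its reads may be shared with relatives.

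Toward SW480, the same rule named genes of several extracellular matrix and cell surface proteins. *TIMP3* (GRCh37, chr22:33197691-33259028, plus strand), a metalloproteinase inhibitor, had normalized read counts of 0, 0, 0 and 3.89 in HT29 KO and 14573, 14215, 29212 and 24838 in SW480 KO libraries. *L1CAM*, a neural adhesion molecule, had 1.01, 0.978, 0 and 0 normalized reads in the HT29 KO libraries and 13209, 12879, 12632 and 12319.9 in the SW480 KO libraries. *NGFR*, a neurotrophin receptor, had 11.1, 1.96, 4.74 and 3.89 normalized reads in HT29 KO and 25316, 26647, 29669 and 32385 in SW480 KO libraries. In all 3 genes the groups were far apart, the ratio being 21300-fold for *TIMP3* (95% counting interval 7288 to 103300, from 3 HT29 KO reads) and 25720-fold for *L1CAM* (95% counting interval 7120 to 212400, from 2 reads). *NGFR* differed by -12.30 ± 0.38 (adjusted p = 2.9e-08). *CADM1*, another cell adhesion gene, and *EPDR1*, the gene of a secreted ependymin-related protein, had 0 reads in all 4 HT29 KO libraries. Their SW480 KO means were 5776 ± 937 and 4999.6 ± 537, at least 7284-fold and 6305-fold higher. *IGFBP3*, an IGF-binding protein gene, separated the SW480 clones, with 2825, 3090.0, 13859 and 12478 in the SW480 KO libraries against 0, 0.978, 0 and 1.30 in the HT29 KO libraries. The remaining leading genes were *SAA1*, an acute-phase protein that shares reads with its near copy *SAA2*, the matrix glycoprotein *SPARC* and the calsyntenin *CLSTN2*, besides *VIM*.

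Several of these leading genes were more divergent in KO than in WT cells. They were picked for their large KO differences, which favors a larger difference in KO, so their values show no general trend. Among all genes called the same way in both genotypes, 108 HT29-higher genes had a larger difference in KO and 126 a smaller one. For SW480-higher genes these numbers were 253 and 194. *AGR2* had 1433 ± 613 in HT29 WT libraries, and its difference of differences was 3.82 ± 0.41 (adjusted p = 1e-05). That of *KRT20*, with 3669 ± 2192 in HT29 WT libraries, was 4.28 ± 0.53 (adjusted p = 4.3e-05). *CEACAM6* had 282 ± 164 normalized reads with *CTNNB1* intact and 10936 ± 5413 after its inactivation in HT29 cells (5.09 ± 0.73, adjusted p = 0.00018). On the other side, *TIMP3* had 1541 ± 150.2 in SW480 WT and 20709 ± 7509 in SW480 KO libraries (-3.40 ± 0.65, adjusted p = 0.0019). *L1CAM* had 1811 ± 249.6 and 12760 ± 377, respectively (-2.73 ± 0.48, adjusted p = 0.0011). With edgeR (TMM) on the recovered reads, these differences of differences were not called for *AGR2* (adjusted p = 1), *CEACAM6* (0.34), *TIMP3* (0.62) and *L1CAM* (0.24), which had 0 to 3 reads in the KO libraries of the lower line. For *ANXA10*, *GCNT3*, *TMED3*, *EPDR1* and *CLSTN2* the genotype made no detectable difference to the line difference (difference of differences 0.63, 0.87, 0.51, -0.60 and -0.72, adjusted p = 0.48, 0.4, 0.27, 0.081 and 0.43).

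Transcription factors of gut identity were mostly higher in HT29 KO cells. Of 20 tested, 13 were higher in HT29, 4 in SW480 (7 without clone 38) and 3 were not called. With a value of at least 10 required in every KO library, 7 were higher in HT29 and 0 in SW480. *KLF5*, a factor of proliferating epithelium, had normalized read counts of 19323, 20096, 14540.1 and 13883 in HT29 KO and 1383, 1258, 916 and 960.0 in SW480 KO libraries (log2 difference 3.91 ± 0.19, adjusted p = 4.4e-07). *HNF4G*, a nuclear receptor of enterocytes, had 1047, 1173, 1086 and 668 normalized reads in the HT29 KO libraries and 0 in all 4 SW480 KO libraries and was at least 1412-fold higher in HT29 (adjusted p = 1.3e-08). The epithelial ETS factors *EHF* and *ELF3* were higher in HT29 KO cells by 2.92 ± 0.51 (adjusted p = 0.0012) and 2.48 ± 0.17 (adjusted p = 3.2e-06). In the other direction, *SOX2*, a stem cell factor, had 0, 0, 1.90 and 1.30 normalized reads in HT29 KO and 223, 212, 441 and 422 in SW480 KO libraries (log2 difference -7.58 ± 0.46, adjusted p = 1.7e-06). *CDX2*, the homeobox factor that specifies the intestine, had normalized read counts of 15.1, 2.94, 19.9 and 7.78 in HT29 KO and 52.7, 65.1, 165 and 142 in SW480 KO libraries. These are low levels in both lines, without overlap (log2 difference -3.21 ± 0.60, adjusted p = 0.0017), whereas SW480 WT libraries had 1097 ± 263 and HT29 WT libraries 5.06 ± 3.28. The *CDX2* difference was thus smaller in KO cells (difference of differences 4.43 ± 0.74, adjusted p = 0.00071). *SOX9*, a factor of crypt progenitors, was not called (log2 difference -0.81 ± 0.15, adjusted p = 0.002), but it was called lower in HT29 when clone 38 was left out (-1.06).

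Goblet cell and enterocyte genes followed the direction of the gut factors. In the goblet and secretory list, 16 of 24 tested genes (66.7%) were higher in HT29 KO and 6 (25.0%) in SW480 KO. Over all tested genes, the shares were 16.2% and 24.3%. The median of the list was 5.02, or 5.40 with genes at 0 reads in one line set to their bound. Without clone 21 or with the libraries of a clone summed, 3 were called higher in SW480. With a value of at least 10 required in every KO library, 4 were higher in HT29 and 3 in SW480. *LYZ*, encoding lysozyme, had 19096, 18574, 31292 and 17532 normalized reads in the HT29 KO libraries and 12.2, 28.4, 32.7 and 25.9 in the SW480 KO libraries (log2 difference 9.75 ± 0.32, adjusted p = 4e-08). *REG4*, a secreted lectin of enteroendocrine and mucous cells, had 471, 378, 36222 and 36898 normalized reads in HT29 KO and 0 in all 4 SW480 KO libraries. HT29 clone 38 exceeded clone 28 widely, and the difference to SW480 was at least 26290-fold (adjusted p = 0.00022). In the enterocyte list 19 of 27 genes (70.4%) were higher in HT29 KO and 3 (11.1%) in SW480 KO (median 5.03). With a value of at least 10 required in every KO library, these numbers were 5 and 1. An exception was *SLC26A2*, a sulfate transporter gene, with normalized read counts of 53.3, 88.1, 129.9 and 171 in HT29 KO and 1440.1, 1316, 1555 and 1448 in SW480 KO libraries (log2 difference -3.81 ± 0.33, adjusted p = 1.5e-05), and another was the brush-border peptidase gene *ANPEP* with 26.2, 36.2, 14.2 and 6.48 normalized reads in the HT29 KO libraries and 166, 147, 115 and 90.2 in the SW480 KO libraries (log2 difference -2.79 ± 0.49, adjusted p = 0.0013). The difference of differences was positive for 10 genes in each of the goblet and enterocyte lists, and negative for 4 and 3.

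The keratins were divided. Simple epithelial keratins were higher in HT29 KO cells: *KRT8* had 285696, 253314, 293579 and 412356 normalized reads in HT29 KO and 87246, 86907, 98886 and 98615 in SW480 KO libraries (log2 difference 1.72 ± 0.17, adjusted p = 3.3e-05), and *KRT19* differed by 2.96 ± 0.25 (adjusted p = 1.4e-05). *KRT5*, a keratin of basal cells of stratified epithelia, had normalized read counts of 17.1, 28.4, 2.85 and 20.7 in HT29 KO and 27637, 27223, 23333 and 21171 in SW480 KO libraries. *KRT81*, a hair keratin whose reads cannot be separated safely from its near copy *KRT86*, had 16.1, 11.7, 3.79 and 2.59 normalized reads in the HT29 KO libraries and 15852, 15677, 18860.2 and 20179 in the SW480 KO libraries. Both were almost confined to SW480 KO libraries, with differences of -10.73 ± 0.56 (adjusted p = 7e-07) and -11.13 ± 0.48 (adjusted p = 2e-07). *KRT7* was likewise higher in SW480 KO cells (log2 difference -1.82 ± 0.30, adjusted p = 0.00096), whereas its WT line difference of 0.69 ± 0.30 was not called (difference of differences -2.52 ± 0.44, adjusted p = 0.0011). Of 17 keratin genes tested, 5 (29.4%) were higher in HT29 KO, 6 (35.3%) in SW480 KO and 6 were not called. Over all tested genes, the shares were 16.2% and 24.3%.

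*HOX* genes, which encode positional identity along the body axis, differed by cluster. In the *HOXD* cluster all 5 tested genes were higher in SW480 KO cells (median -5.64), and in the *HOXC* cluster 4 of 7 were higher in SW480 and 0 in HT29 (median -2.71). In the *HOXA* cluster 4 of 11 were higher in HT29 and 3 in SW480, and in the *HOXB* cluster 1 of 9 was higher in HT29 and 0 in SW480. *HOXD10* had 0 normalized reads in all 4 HT29 KO libraries and 188, 183, 175 and 161 in the SW480 KO libraries, at least 223-fold higher in SW480 (adjusted p = 2.4e-08). *HOXC10* had 2.01, 8.81, 0 and 1.30 normalized reads in HT29 KO and 535, 483, 678 and 667 in SW480 KO libraries (log2 difference -7.67 ± 0.61, adjusted p = 9.3e-06). *HOXB9* had normalized read counts of 5214, 5713, 6818 and 5943 in HT29 KO and 499, 476, 692 and 726 in SW480 KO libraries, with all HT29 libraries on top (log2 difference 3.32 ± 0.17, adjusted p = 7.1e-07). *HOXA13*, a hindgut gene, had 1689, 1962, 1185 and 1189 normalized reads in the HT29 KO libraries and 149, 153, 267 and 252 in the SW480 KO libraries (log2 difference 2.89 ± 0.27, adjusted p = 2.5e-05). *HOXA10* differed by 1.86 ± 0.38 (adjusted p = 0.0028), and *HOXB7* was not called, its HT29 library 38 B standing apart at 2127, 1964, 2305 and 5781 against 1729, 1543, 2367 and 2417. Of the whole list, 5 of 32 were higher in HT29 KO (3 without clone 17) and 12 in SW480 KO. These shares were 15.6% and 37.5%, against 16.2% and 24.3% over all tested genes. With a value of at least 10 required in every KO library, 2 were higher in SW480. The difference of differences was called for 6 of the *HOXB* genes, 1 *HOXD* gene and no *HOXA* or *HOXC* gene.

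Components of the WNT pathway that act upstream of or with β-CATENIN were more often higher in SW480 KO cells. Of 53 tested, 27 (50.9%) were higher in SW480, 6 (11.3%) in HT29 and 20 were not called (median -1.45). Over all tested genes, the shares were 24.3% and 16.2%. *WNT5A*, a ligand of non-canonical signaling, had 3.02, 4.89, 0 and 0 normalized reads in HT29 KO and 2919.6, 2859.8, 4025 and 4375 in SW480 KO libraries (log2 difference -10.62 ± 0.60, adjusted p = 1.1e-06). *FZD1*, a WNT receptor gene, had normalized read counts of 64.4, 37.2, 44.6 and 24.6 in HT29 KO and 3126, 2820.3, 4528 and 4191 in SW480 KO libraries (log2 difference -6.44 ± 0.30, adjusted p = 3.2e-07). *TLE3*, a co-repressor that binds TCF/LEF factors, was higher in SW480 (log2 difference -2.07 ± 0.17, adjusted p = 1.1e-05), while its relative *TLE1* was higher in HT29 (log2 difference 1.31 ± 0.14, adjusted p = 5.8e-05). *JUP*, the gene of γ-CATENIN, had 20019.8, 19066, 19370.1 and 18620.1 normalized reads in the HT29 KO libraries and 2352, 2271, 4015 and 3712 in the SW480 KO libraries. Each HT29 KO library exceeded each SW480 KO library (log2 difference 2.69 ± 0.20, adjusted p = 6.7e-06), and the WT difference was 2.76 ± 0.17. *AXIN1*, a scaffold of the destruction complex, was higher in HT29 KO cells (log2 difference 1.44 ± 0.14, adjusted p = 3.1e-05). *CTNNA1*, encoding α-CATENIN, was the most abundant component that was not called (log2 difference -0.53 ± 0.20, adjusted p = 0.05). The difference of differences was positive for 4 and negative for 8 of the 53 components.

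For WNT target and feedback genes, the line difference itself often changed with the genotype: of 35 tested, 10 had a positive and 6 a negative difference of differences. Over all genes, 5.63% were positive and 5.73% negative. In KO cells 13 of 28 tested genes (46.4%) were higher in SW480 and 6 (21.4%) in HT29, against 24.3% and 16.2% over all tested genes. In this list 9 were not called (median -0.75). With the libraries of a clone summed, 3 were higher in HT29. *AXIN2*, a feedback inhibitor and widely used reporter of the pathway, had 15.1, 22.5, 158 and 119 normalized reads in HT29 KO and 357, 356, 455 and 591 in SW480 KO libraries. The groups did not overlap, with HT29 clone 38 above clone 28 (log2 difference -3.06 ± 0.72, adjusted p = 0.0065), but the call was lost without SW480 clone 21 (adjusted p = 0.077) or with the libraries of a clone summed (0.076). In WT cells *AXIN2* had 675 ± 78.2 in HT29 and 11508 ± 534 in SW480 libraries, and its line difference was -4.10 ± 0.10, not detectably different from that in KO cells (difference of differences 1.04 ± 0.76, adjusted p = 0.42). *LEF1*, a TCF/LEF factor gene and target, had normalized read counts of 0, 1.96, 0 and 0 in HT29 KO and 261, 230.3, 408 and 396 in SW480 KO libraries. It was 662-fold higher in SW480 KO (95% counting interval 183 to 5471, from 2 HT29 KO reads). *APCDD1*, an inhibitor at the receptor level, had 10.1, 16.6, 0 and 5.19 normalized reads in the HT29 KO libraries and 419, 458, 2108 and 2038 in the SW480 KO libraries. WT libraries had 3.38 ± 1.64 in HT29 and 39219 ± 3654 in SW480 cells. Its line difference of -7.34 ± 0.95 in KO cells was -13.23 ± 0.29 in WT cells (difference of differences 5.89 ± 1.05, adjusted p = 0.0011). *NKD1*, which antagonizes DISHEVELLED, had 5.03, 11.7, 0 and 1.30 normalized reads in HT29 KO and 166, 149, 275 and 309 in SW480 KO libraries (log2 difference -5.88 ± 0.73, adjusted p = 0.00017).

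For *SP5* and *WNT11* the line difference had opposite signs in WT and KO cells, with KO calls that did not hold in several fits. *SP5*, a transcription factor gene directly activated by the pathway, had normalized read counts of 29.2, 42.1, 33.2 and 45.4 in HT29 KO and 7.52, 5.50, 14 and 28.8 in SW480 KO libraries. In WT cells it had 51.5 ± 51.7 in HT29 and 3795 ± 544 in SW480 libraries. The line difference was thus -7.11 ± 0.90 in WT and 1.59 ± 0.47 in KO cells, a difference of differences of 8.70 ± 1.06 (adjusted p = 3.5e-05). The KO call of *SP5* was at low counts and was lost without library 17 A (adjusted p = 0.056), clone 28 (0.055), clone 38 (0.057) or clone 17 (0.15). It was also lost with clone as a random effect (0.053), with the libraries of a clone summed (0.12) and with all 4 groups in 1 fit (0.076). *WNT11*, a ligand gene, had 5.03, 3.91, 11.4 and 16.9 normalized reads in the HT29 KO libraries and 44.2, 20.2, 19.6 and 17.3 in the SW480 KO libraries and means of 1682 ± 333 in HT29 WT and 113 ± 10.7 in SW480 WT libraries (difference of differences -5.32 ± 0.53, adjusted p = 4.2e-06). Its KO call (log2 difference -1.45 ± 0.49, adjusted p = 0.033) was lost without any one of clone 28 (0.20), clone 17 (0.20) or clone 21 (0.078), or of libraries 28 A, 28 B, 17 A, 17 B and 21 A (0.055 to 0.091). It was also lost with clone as a random effect (0.082) and with the libraries of a clone summed (0.14).

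The *SP5* promoter (chr2:170715087-170715386, GRCh38.p14, plus strand, RefSeq) is shown because it was one of 2 among the 20 target gene promoters in the table that held the TCF/LEF motif CTTTGAT or its reverse complement ATCAAAG. The same window is used as for the junction genes, and the match is in capitals.
SP5: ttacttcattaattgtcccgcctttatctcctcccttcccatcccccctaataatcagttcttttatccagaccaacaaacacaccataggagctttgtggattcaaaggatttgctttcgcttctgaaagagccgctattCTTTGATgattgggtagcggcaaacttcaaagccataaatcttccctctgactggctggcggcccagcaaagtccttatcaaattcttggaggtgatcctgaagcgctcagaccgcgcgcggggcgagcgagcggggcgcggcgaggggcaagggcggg
The motif was found in 10% of these target gene promoters, in 2.62% of all 35116 promoters and in 0 of the 23 junction gene promoters. The match began at position -109 from the annotated start.

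For several further targets the line difference was called in KO but not in WT cells. *RNF43*, a ubiquitin ligase that removes WNT receptors, had 3089, 3518, 6346 and 3641 normalized reads in HT29 KO and 366, 346, 373 and 393 in SW480 KO libraries. All HT29 KO libraries were higher (log2 difference 3.43 ± 0.22, adjusted p = 2.3e-06), whereas the WT means were 3968 ± 407 and 2906 ± 504 (difference of differences 2.97 ± 0.26, adjusted p = 1.5e-06). *CDCA7*, a MYC-responsive gene, was higher in SW480 KO cells (log2 difference -1.70 ± 0.19, adjusted p = 7.1e-05; difference of differences -2.03 ± 0.43, adjusted p = 0.0044). *CD44*, the hyaluronan receptor gene, had normalized read counts of 5108, 4649, 9899 and 9585 in HT29 KO and 17890.2, 18962, 14683 and 15728 in SW480 KO libraries (log2 difference -1.28 ± 0.27, adjusted p = 0.0034), but this call was lost without clone 28 (difference -0.78), without clone 17 (adjusted p = 0.056) or with the libraries of a clone summed (0.062). *DKK1*, a secreted WNT inhibitor, had 2727, 2204, 6904 and 7818 normalized reads in the HT29 KO libraries and 601, 718, 927 and 1165 in the SW480 KO libraries. It was higher in every HT29 KO library (log2 difference 2.36 ± 0.43, adjusted p = 0.0017), although its difference of differences was not called (2.30 ± 0.85, adjusted p = 0.092). *CCND1*, which encodes CYCLIN D1, had 2883, 3087, 1766 and 1179 normalized reads in HT29 KO and 24268, 23837, 34602 and 36822 in SW480 KO libraries (log2 difference -3.82 ± 0.32, adjusted p = 1.3e-05). It was also higher in SW480 WT cells (-3.32 ± 0.11), with no called difference of differences (-0.50 ± 0.35, adjusted p = 0.4). *MYC* was not called in either genotype (0.85 ± 0.17 in KO, 0.13 ± 0.09 in WT cells).

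**Figure D3:**
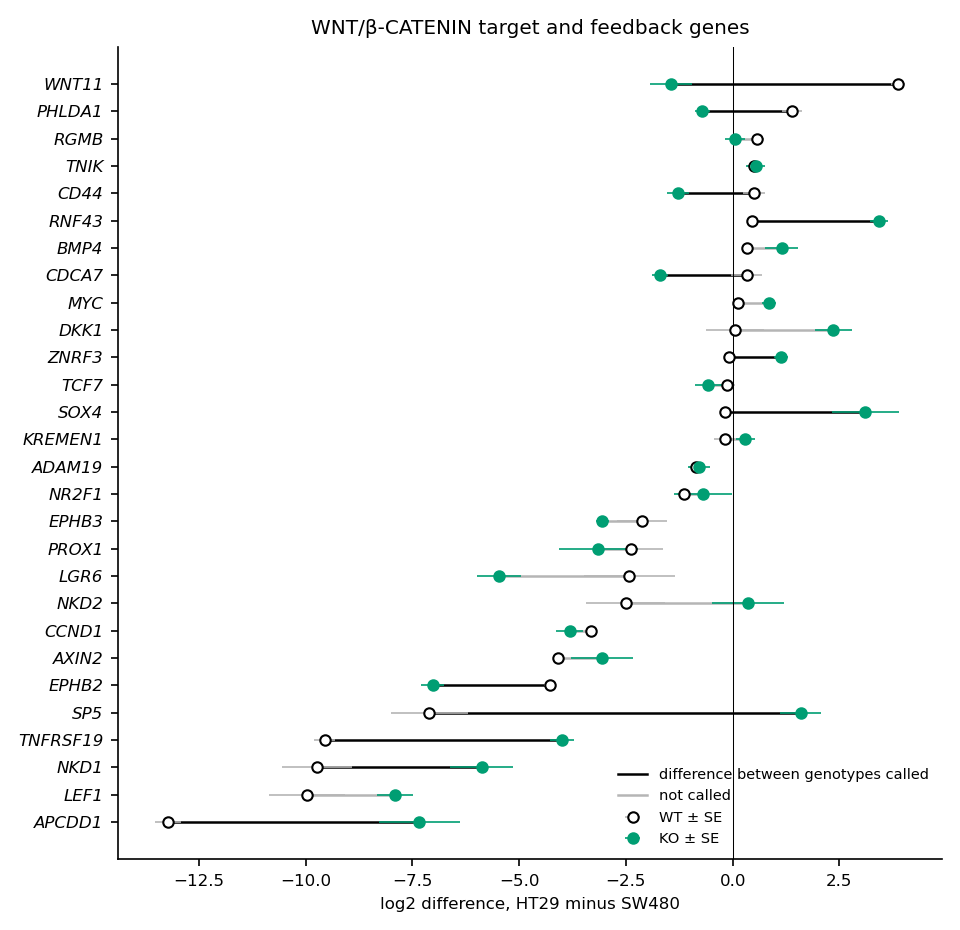
Line difference (HT29 minus SW480, log2) of the 28 WNT target and feedback genes tested in KO cells, with open symbols for WT cells, green symbols for KO cells and bars for the SE. A black line joins the symbols where the difference of differences was called, as for *SP5* (8.70), *APCDD1* (5.89), *RNF43* (2.97) and *WNT11* (-5.32).

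The genes with the largest difference of differences came from several pathways. *CST1* and *CST4*, which encode secreted cystatins and are near copies that may share reads, had higher counts in HT29 KO cells but in SW480 cells among the WT libraries. *CST1* had normalized read counts of 4104, 2531, 4705 and 6871 in HT29 KO and 774, 894, 1958 and 2165 in SW480 KO libraries, against WT means of 82.8 ± 92.6 in HT29 and 12729 ± 4826 in SW480 (difference of differences 10.15 ± 1.27, adjusted p = 4.4e-05). Its KO call (log2 difference 1.71 ± 0.41, adjusted p = 0.0073) was lost without clone 17 (adjusted p = 0.075), with the libraries of a clone summed (0.062) or with all 4 groups in 1 fit (0.11). *CST4* had 1565, 869, 1344 and 2102 normalized reads in the HT29 KO libraries and 43.3, 47.7, 118 and 127 in the SW480 KO libraries, and WT means of 1.70 ± 2.0 and 113 ± 44.6 (difference of differences 9.91 ± 0.76, adjusted p = 4.3e-07). *CXCR4*, the receptor of the chemokine CXCL12, had 4.02, 0, 1080.4 and 1389 normalized reads in HT29 KO and 132, 141, 149 and 222 in SW480 KO libraries. Clone 28 of HT29 was near 0 and clone 38 exceeded all SW480 KO libraries, and no KO line difference was called (log2 difference -1.60 ± 2.24, adjusted p = 0.57). Without clone 28 *CXCR4* was higher in HT29 (2.95), and without clone 38 it was lower (-6.15). In WT cells its means were 0.820 ± 0.998 in HT29 and 6638 ± 506 in SW480 libraries (difference of differences 10.40 ± 2.41, adjusted p = 0.0078). *DACH1*, a transcriptional regulator, had normalized read counts of 1.01, 0.978, 1304 and 1094 in HT29 KO and 0, 0, 0 and 1.92 in SW480 KO libraries. It exceeded 2 normalized reads in HT29 clone 38 alone. Fewer than 4 KO libraries thus reached 10 normalized reads, and *DACH1* was not tested in KO cells.

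In the negative direction, *PPARG*, a nuclear receptor of lipid metabolism and colonocyte differentiation, had 4204, 3755, 3497 and 3672 normalized reads in the HT29 KO libraries and 1591, 1617, 1191 and 1141 in the SW480 KO libraries. The groups did not overlap (log2 difference 1.46 ± 0.15, adjusted p = 5.2e-05). In WT cells it was 4738 ± 907 in HT29 and 6.57 ± 1.45 in SW480 libraries, a far larger line difference (difference of differences -7.83 ± 0.25, adjusted p = 5.1e-11). *ABLIM3*, an actin-binding protein gene, had 2361, 2315, 3097 and 1674 normalized reads in HT29 KO and 1752, 1766, 790.0 and 866 in SW480 KO libraries. Its WT means were 2070 ± 758 in HT29 and 4.04 ± 2.98 in SW480 (difference of differences -7.90 ± 0.61, adjusted p = 4.3e-07). Its KO line difference (0.94 ± 0.32) missed the threshold and passed it without clone 17 (1.48) or without library 38 B, 17 A or 17 B (1.09 to 1.12). *IL7R*, a cytokine receptor gene, had normalized read counts of 1.01, 0, 0 and 0 in HT29 KO and 2012, 1894, 2039 and 1988 in SW480 KO libraries, and 17.0 ± 16.8 in HT29 WT and 2.43 ± 2.90 in SW480 WT libraries (difference of differences -13.08 ± 0.99, adjusted p = 3.7e-07). *C3*, the central complement component, had 10.1, 0, 0 and 0 normalized reads in the HT29 KO libraries and 3277, 2907, 1212 and 976 in the SW480 KO libraries (log2 difference -9.97 ± 0.83, adjusted p = 1.3e-05; difference of differences -7.94 ± 1.02, adjusted p = 5.8e-05). *NNMT*, nicotinamide N-methyltransferase, had 208, 166, 1.90 and 2.59 normalized reads in HT29 KO and 217, 208, 163 and 116 in SW480 KO libraries and WT means of 1683 ± 399 in HT29 and 13.5 ± 5.83 in SW480 (difference of differences -9.71 ± 1.55, adjusted p = 0.00046). The HT29 KO clones split, so that *NNMT* was not called in KO cells (-2.81 ± 1.44, adjusted p = 0.13). It was called lower in HT29 without clone 28 (-5.74), library 28 A (-3.84) or library 28 B (-3.73) and with all 4 groups in 1 fit (adjusted p = 0.035), and was near equal without clone 38 (0.12).

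Genes of xenobiotic and retinoid metabolism were more often higher in HT29 KO cells. Of 48 tested, 25 (52.1%) were higher in HT29, 10 (20.8%) in SW480 and 13 were not called (median 1.2). Over all tested genes, the shares were 16.2% and 24.3%. *NQO1*, a quinone reductase gene under NRF2 control, had normalized read counts of 22547, 25945, 20389 and 33025 in HT29 KO and 10070.1, 10276, 11584 and 11842 in SW480 KO libraries (log2 difference 1.2 ± 0.17, adjusted p = 0.0003). *AKR1B10*, an aldo-keto reductase gene with close relatives, had 8692, 11098, 60930.3 and 58917 normalized reads in the HT29 KO libraries and 139, 121, 114 and 98.9 in the SW480 KO libraries, with HT29 clone 38 above clone 28 and both above SW480 (log2 difference 7.68 ± 0.65, adjusted p = 1.3e-05). *ABCC3*, an efflux transporter gene, was higher in HT29 as well (log2 difference 1.45 ± 0.17, adjusted p = 0.00012), though less so than in WT cells (difference of differences -2.20 ± 0.23, adjusted p = 7.2e-06). *ALDH1A3*, which makes retinoic acid, and the glutathione S-transferase gene *GSTM4*, whose family shares sequence, were higher in SW480 KO cells (-3.32 and -2.84, adjusted p = 1.9e-07 and 0.00019).

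Among genes of MHC class I antigen presentation, *HLA-B* and *HLA-C* were lower in HT29 KO cells. *HLA-B*, an MHC class I heavy chain gene, had 414, 245, 67.3 and 86.9 normalized reads in HT29 KO and 4219.5, 4659, 6507 and 7117 in SW480 KO libraries. *HLA-C* had normalized read counts of 1627, 1292, 739 and 1019 in HT29 KO and 10941, 11356, 15029 and 15636 in SW480 KO libraries. All HT29 KO libraries were below all SW480 KO libraries, with differences of -5.13 ± 0.55 (adjusted p = 6e-05) and -3.54 ± 0.25 (adjusted p = 4.3e-06), with reads that may be shared among HLA genes. *ERAP2*, a peptide-trimming protease of the endoplasmic reticulum, was higher in HT29 KO cells (log2 difference 2.60 ± 0.14, adjusted p = 9.1e-07). Of 19 genes tested, 7 (36.8%) were higher in SW480 KO and 2 (10.5%) in HT29 KO, against 24.3% and 16.2% over all tested genes. No difference of differences was called for 18 of 19. Over all genes, such calls were also few, 5.63% positive and 5.73% negative. Without clone 28, 11 genes were higher in SW480 and 1 in HT29, and without clone 21, 4 were higher in each line. Without clone 17 or any one of its libraries or those of clone 28, 1 gene was higher in HT29.

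Interferon-stimulated genes separated the HT29 KO clones from each other. Of 42 tested, 38 were more than 1 (log2) higher in clone 28 than in clone 38 and 0 were higher in clone 38 (median 3.75), against 1 and 1 between the SW480 clones. Across all tested genes, 1893 of 16370 were higher in clone 28 and 1818 in clone 38 by this measure. *IFI27*, an interferon-induced mitochondrial protein gene, had 13386, 9304, 227 and 331 normalized reads in the HT29 KO libraries and 49.9, 51.4, 73.8 and 80.6 in the SW480 KO libraries (log2 difference 4.79 ± 1.31, adjusted p = 0.013). Its call was lost without clone 17 (adjusted p = 0.11) or clone 21 (0.078), or with the libraries of a clone summed (0.098). *SAMD9*, an antiviral factor gene, had 9237, 9345, 2363 and 1072 normalized reads in HT29 KO and 500.4, 456, 308 and 310.1 in SW480 KO libraries (log2 difference 3.32 ± 0.67, adjusted p = 0.0028). *IRF1*, an interferon-induced transcription factor gene, was lower in both HT29 clones (1761, 1728, 738 and 719.5 against 4145, 4342, 4888 and 4713; difference -2.0 ± 0.32, adjusted p = 0.00076). *IFITM3*, which has near copies, was called lower in HT29 KO (log2 difference -3.05 ± 0.92, adjusted p = 0.02), a call lost without library 21 A (0.054), clone 17 (0.10) or clone 21 (0.14), with the libraries of a clone summed (0.12) and with edgeR (TMM, 0.063).

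The line comparison of this list therefore depended on the clones. With all libraries, 9 of 42 genes were higher in HT29 KO, 6 were higher in SW480 KO and 27 were not called. The called shares were 21.4% and 14.3%, against 16.2% and 24.3% over all tested genes. Leaving out a clone left 2 libraries of 1 clone for its line. Without clone 28, the numbers were 4 and 27. Without clone 38, they were 26 and 6. Without clone 17, they were 3 and 3, and without clone 21, 3 and 2. Without library 38 A or library 21 A, 3 were higher in SW480.

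**Figure D4:**
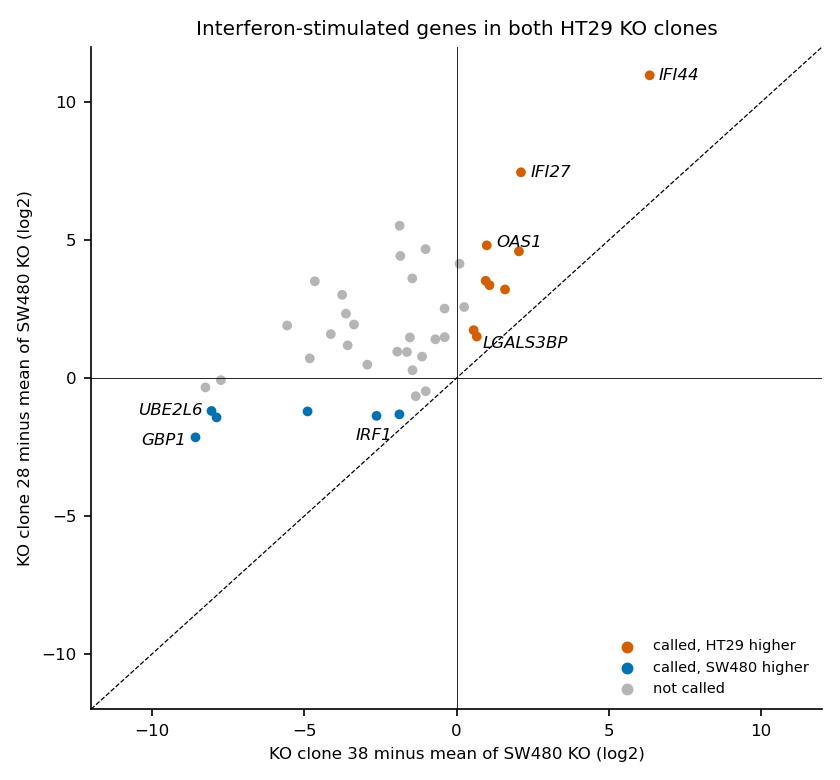
Line difference of each gene to the mean of the SW480 KO libraries for HT29 KO clone 38 (x axis) and clone 28 (y axis), both in log2, for the tested interferon-stimulated genes, in orange where called higher in HT29 KO, blue where called higher in SW480 KO and gray where not called. Of the 42 interferon-stimulated genes, 38 lie more than 1 above the diagonal and 0 lie more than 1 below it.

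Few cell cycle genes were called between the KO lines. Of 43 tested, 35 were not called, 6 were higher in SW480 and 2 were higher in HT29 (median -0.24), and 42 of 43 had no called difference of differences. *CDC45*, a replication helicase gene, had normalized read counts of 3174, 2944, 4737 and 4998 in HT29 KO and 1609, 1594, 1444 and 1621 in SW480 KO libraries (log2 difference 1.30 ± 0.19, adjusted p = 0.00044). *CCNE1*, encoding CYCLIN E1, had 1411, 1241, 1592 and 2045 normalized reads in the HT29 KO libraries and 684, 712, 625 and 660.5 in the SW480 KO libraries (log2 difference 1.21 ± 0.17, adjusted p = 0.0003). These were the only list members called higher in HT29, and both fell just under the threshold without clone 38 (0.97 and 0.98). *TPX2*, a spindle assembly gene, and *CENPF*, a kinetochore gene, were higher in SW480 KO cells (-1.07 ± 0.26 and -1.01 ± 0.20, adjusted p = 0.0071 and 0.0028) and were not called without clone 17 (-0.62 and -0.71) or without either of its libraries (-0.98 to -0.87 and -0.94 to -0.88). *TPX2* was also not called without clone 38 (-0.91), and *CENPF* was not without clone 28 (-0.97), library 28 A (-0.96) or library 38 B (-0.96). *CCND2*, encoding CYCLIN D2, had 0 normalized reads in all 4 HT29 KO libraries and 824, 895, 623 and 649.9 in the SW480 KO libraries, at least 943-fold higher in SW480 (adjusted p = 1.3e-08). *RRM2*, a ribonucleotide reductase gene, was the most abundant member that was not called (log2 difference -0.93 ± 0.17, adjusted p = 0.0015) and was called without clone 21 (-1.19) or library 21 A (-1.06). Without clone 17 and without clone 21, 2 and 10 list members were higher in SW480.

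*CDKN1A*, a gene of an inhibitor of cyclin-dependent kinases, had 449.6, 291, 427 and 280.0 normalized reads in HT29 KO and 3713, 4293, 3040.3 and 3668 in SW480 KO libraries (log2 difference -3.37 ± 0.20, adjusted p = 1.4e-06). *PLAU*, the urokinase gene, had normalized read counts of 20.1, 9.78, 169 and 162 in HT29 KO and 15726, 17285, 8980.0 and 10797 in SW480 KO libraries. HT29 clone 38 was above clone 28 and both were far below SW480 (log2 difference -7.99 ± 0.88, adjusted p = 7.4e-05). The WT means of *PLAU* were 15.6 ± 4.08 in HT29 and 96.6 ± 13.0 in SW480, and the line difference was larger in KO cells (difference of differences -5.41 ± 0.95, adjusted p = 0.0011).

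Integrin and laminin genes, which mediate attachment to the matrix, were higher in SW480 KO in 18 of 33 and in HT29 KO in 5 (median -1.22). These shares were 54.5% and 15.2%, against 24.3% and 16.2% over all tested genes. *ITGA3*, the integrin α3 gene, had 12505, 12083, 11252 and 6696 normalized reads in the HT29 KO libraries and 38295, 38859, 35920.2 and 38602 in the SW480 KO libraries (log2 difference -1.88 ± 0.20, adjusted p = 6.3e-05). *COL17A1*, a hemidesmosomal collagen gene, had 6037, 5487, 3597 and 1615 normalized reads in HT29 KO and 54.6, 25.7, 26.1 and 57.6 in SW480 KO libraries (log2 difference 6.57 ± 0.46, adjusted p = 4.3e-06). *ITGB6*, the epithelial integrin β6 gene, was also higher in HT29 (log2 difference 4.92 ± 0.31, adjusted p = 2.1e-06). For both of the latter the line difference was smaller in KO than in WT cells (difference of differences -4.72 ± 0.72 and -2.79 ± 0.52, adjusted p = 0.00032 and 0.0015). *ITGB1*, the common β1 chain, was not called (log2 difference 0.40 ± 0.16, adjusted p = 0.064).

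Receptor tyrosine kinase genes were divided between the lines. Of 52 tested genes of this pathway, 17 were higher in SW480 KO, 10 in HT29 KO and 25 were not called (median -0.49). These shares were 32.7% and 19.2%, against 24.3% and 16.2% over all tested genes. *ERBB3*, an ERBB family receptor, had normalized read counts of 6239, 6345, 3865 and 3560.1 in HT29 KO and 57.4, 70.6, 63.5 and 84.5 in SW480 KO libraries (log2 difference 6.12 ± 0.24, adjusted p = 1.1e-07). *ERBB2* was also higher in HT29 (log2 difference 2.53 ± 0.16, adjusted p = 2.6e-06). *FGFR1*, a fibroblast growth factor receptor, had 13.1, 6.85, 0.949 and 0 normalized reads in the HT29 KO libraries and 2837, 2964, 4115 and 4478 in the SW480 KO libraries (log2 difference -9.85 ± 0.77, adjusted p = 8.1e-06). *EGFR* had 2665, 2856, 1581 and 701 normalized reads in HT29 KO and 7415, 6610.4, 5599.8 and 6003 in SW480 KO libraries (log2 difference -1.90 ± 0.41, adjusted p = 0.0038), a call that was lost without clone 17 (adjusted p = 0.056). *MET*, the receptor of hepatocyte growth factor, had normalized read counts of 11140.4, 12645, 12764 and 10002 in HT29 KO and 4837, 5058, 3884 and 4551 in SW480 KO libraries. The difference in KO cells was 1.34 ± 0.14 (adjusted p = 3.9e-05), whereas the WT means were 16115 ± 3035 in HT29 and 180.0 ± 47.0 in SW480 (difference of differences -5.15 ± 0.26, adjusted p = 5.2e-09). *DUSP6*, a phosphatase gene induced by ERK signaling, was higher in SW480 KO cells (log2 difference -1.57 ± 0.24, adjusted p = 0.00058), less so than in WT cells (difference of differences 1.5 ± 0.27, adjusted p = 0.0012).

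TGF-β and BMP pathway genes were higher in SW480 KO in 13 of 34 and in HT29 KO in 6 (median -0.66). These shares were 38.2% and 17.6%, against 24.3% and 16.2% over all tested genes. Without library 17 B, without clone 17 or with the libraries of a clone summed, 3 were higher in HT29. *TGFBI*, a TGF-β-induced matrix gene, had 128, 108, 75.9 and 75.2 normalized reads in the HT29 KO libraries and 25746, 26063, 29927 and 27003 in the SW480 KO libraries (log2 difference -8.16 ± 0.19, adjusted p = 1.1e-08; difference of differences -5.74 ± 0.25, adjusted p = 1.5e-09). *SMAD4*, the common mediator of the pathway, had 286, 279, 248 and 319 normalized reads in HT29 KO and 40.4, 29.4, 29.9 and 42.2 in SW480 KO libraries (log2 difference 2.97 ± 0.21, adjusted p = 3.9e-06). Its WT line difference was 2.90 ± 0.22, and no change with the genotype was detected (difference of differences 0.07 ± 0.30, adjusted p = 0.91). *ID1*, a BMP-induced inhibitor of differentiation, had normalized read counts of 4021, 3735, 4252 and 8527 in HT29 KO and 523, 539, 284 and 271 in SW480 KO libraries (log2 difference 3.65 ± 0.34, adjusted p = 2.4e-05). *BAMBI*, a decoy receptor gene that also responds to WNT, had 4.02, 1.96, 85.4 and 158 normalized reads in the HT29 KO libraries and 372, 391, 642 and 638 in the SW480 KO libraries (log2 difference -4.54 ± 1.23, adjusted p = 0.012), a call lost without clone 17 (adjusted p = 0.072) or clone 21 (0.11), or with the libraries of a clone summed (0.095). Its WT means were 0.253 ± 0.507 in HT29 and 7143 ± 375 in SW480 (difference of differences 8.01 ± 1.32, adjusted p = 0.00064).

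Over all 19 lists fixed for this comparison, 572 different genes were tested in KO cells, of which 161 were higher in HT29, 186 were higher in SW480 and 225 were not called. Over all tested genes, the shares of such calls were 16.2% and 24.3%. Of the epithelial markers, 9 of 12 tested were higher in HT29 KO and 2 in SW480 KO, and of the markers of other cell types, 1 of 6 tested was higher in HT29 KO (0 without clone 38 or clone 17) and 4 in SW480 KO. With a value of at least 10 required in every KO library, 4 epithelial markers were higher in HT29 KO and 0 in SW480 KO. For the markers of other cell types, these numbers were then 0 and 1.

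**Figure D5:**
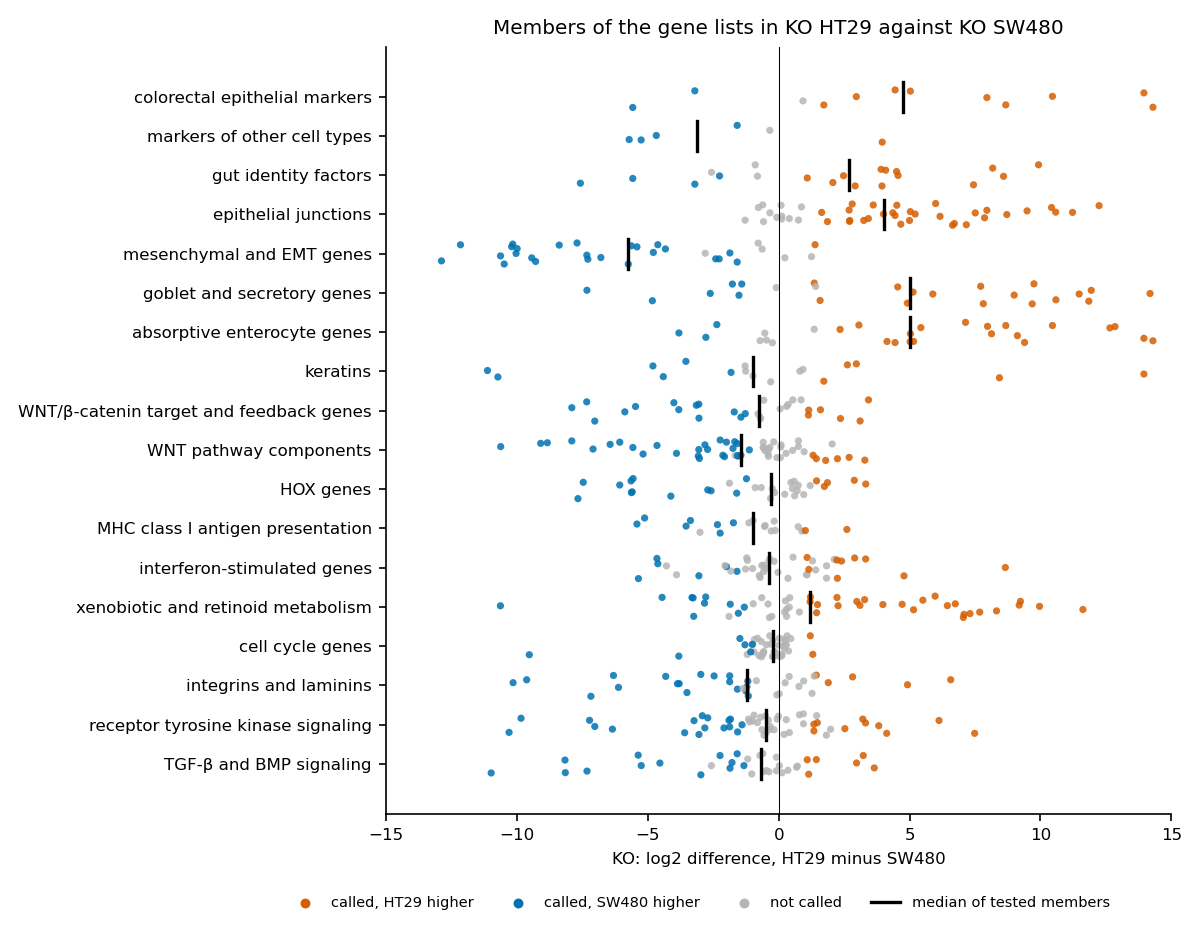
Line difference in KO cells (HT29 minus SW480, log2, x axis) of each tested gene of 18 lists, with 1 row per list, orange points for genes called higher in HT29, blue points for genes called higher in SW480, gray points for genes not called and a bar at the median. The junction list holds 31 orange points and 0 blue points, the mesenchymal list 1 and 25.

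The clones of a line were not interchangeable. In HT29 KO cells, 3711 of the 16370 genes (22.7%) differed by more than 1 (log2) between clones 28 and 38, and in SW480 KO cells 938 (5.73%) differed between clones 17 and 21. Between rounds A and B of the same clone, the SD of the log2 difference over genes was 0.49 in clone 28 and 0.93 in clone 38, and 0.36 and 0.38 in clones 17 and 21. Among genes called between the lines, the largest clone differences in HT29 were those of *IGFBP7*, *CALD1* and *KIRREL1*. *IGFBP7*, an IGF-binding protein gene, had 2.01, 0, 813 and 1556 normalized reads in HT29 KO and 3824, 4099, 6346 and 5853 in SW480 KO libraries. *CALD1*, which encodes the actin regulator CALDESMON, had normalized read counts of 0, 4.89, 1068 and 712 in HT29 KO and 6076, 5696, 6351 and 6368 in SW480 KO libraries. *KIRREL1*, the gene of a slit diaphragm adhesion protein, had 0, 1.96, 922 and 358 normalized reads in the HT29 KO libraries and 1852, 1739, 1386 and 1419.9 in the SW480 KO libraries. All 3 were near 0 in clone 28 only, and their line differences (log2 difference -6.80 ± 2.29, adjusted p = 0.032; log2 difference -7.05 ± 2.10, adjusted p = 0.019; log2 difference -5.66 ± 2.06, adjusted p = 0.043) did not pass the test without clone 17 or clone 21 (adjusted p = 0.14 and 0.17, 0.12 and 0.12, 0.20 and 0.17). *IGFBP7* and *KIRREL1* also failed it without any one of libraries 28 A, 28 B, 17 A, 17 B, 21 A and 21 B (0.059 to 0.078 and 0.081 to 0.099), and with the libraries of a clone summed none of the 3 passed (0.15, 0.11 and 0.19), nor did they with edgeR (TMM; 0.11, 0.051 and 0.19). In SW480, *PDE2A*, a cyclic nucleotide phosphodiesterase gene, had 2.01, 4.89, 4.74 and 7.78 normalized reads in HT29 KO and 1500.3, 1477, 40.2 and 49.9 in SW480 KO libraries, clone 17 being far above clone 21 (log2 difference -5.58 ± 1.26, adjusted p = 0.005; not called with the libraries of a clone summed, adjusted p = 0.062). *HS3ST1*, a heparan sulfate sulfotransferase gene, had normalized read counts of 2055, 1947, 2781 and 2514 in HT29 KO and 67.7, 71.6, 0 and 1.92 in SW480 KO libraries (log2 difference 7.71 ± 1.33, adjusted p = 0.0012). *SMIM22*, encoding a small membrane protein, had 897, 635, 609 and 2487 normalized reads in the HT29 KO libraries and 5.64, 6.42, 221 and 191 in the SW480 KO libraries, and here clone 21 was higher (log2 difference 4.66 ± 1.25, adjusted p = 0.012; not called with the libraries of a clone summed, adjusted p = 0.083).

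Line differences also varied by chromosome. The median difference over the tested genes of a chromosome in KO cells was lowest on chromosome 21 (-0.84), 3 (-0.57) and 14 (-0.53) and highest on chromosomes 13 (0.39), 18 (0.36) and 15 (0.29). In WT cells the medians of these chromosomes were -0.78, -0.54, -0.71, 0.46, 0.35 and 0.53. Across 23 chromosomes, the KO and WT medians correlated with Spearman's rho and Pearson's r of 0.944 each, as a description of points that come from the same cell lines.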

How the data were processed

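Libraries of 3 CRC cell lines were made with the TruSeq RNA v2 kit, and the 16 HT29 and SW480 libraries were used here. Per the labels and the submitters' processing notes, the authors processed the reads with bcl2fastq, STAR 2.7.5b (GRCh37) and featureCounts 2.0.1, and normalized with DESeq2 2.11.40.6. The deposited values are a signal, namely counts that the authors had scaled by the size factor of each library, for 58051 Ensembl identifiers, of which 95.78% had a symbol. Dividing by the smallest step of each library gave whole reads for all values within 0.01.

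Line differences were tested with limma 3.58.1 (trend and robust, R 4.3.3) on log2(value + 1), for genes that reached 10 normalized reads in 4 or more libraries, with Benjamini-Hochberg adjustment over all tested genes. The difference scale understates changes of low genes. Calls needed an adjusted p under 0.05 and a difference over 1. The difference of differences was fitted on all 16 libraries with 4 group means. The limma, edgeR (TMM) and DESeq2 fits were run on simulated independent libraries. This covered the KO comparison and the difference of differences only. Alternatives were edgeR 4.0.16 and DESeq2 1.42.0 on the recovered reads, other pseudocounts and filters, clones summed or as a random effect, a replicate block, and leaving out libraries or clones. Tables and figures were made with Python 3.11.15 (numpy 2.4.6, pandas 2.3.3, scipy 1.17.1, matplotlib 3.10.9).

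The comparison, its 19 gene lists and its rules were chosen with earlier results of these data known. Of the lists, 18 are described, and some items are not reported here. Named were *CTNNB1*, the 10 largest differences per direction among called genes without overlap and with a mean of at least 500, in each list the 3 most abundant called genes per direction and the most abundant one not called, the 5 largest differences of differences per direction, and the 3 largest clone differences per line, and from these a selection is described. *CDH1*, *RAB25*, *CRB3*, *CLDN7*, *GRHL2*, *ZEB1*, *SNAI2*, *FN1*, *HNF4G*, *HOXD10*, *AXIN2*, *NKD1*, *SP5*, *APCDD1*, *LEF1*, *WNT11*, *CCND2*, *CDKN1A*, *FGFR1*, *SMAD4*, *BAMBI* and the marker genes given with reads were chosen after their values were seen. Counting intervals are exact 95% intervals for the reads of the lower line, and the floor for 0 reads is 3 reads over its 4 libraries. Promoter sequences are RefSeq entries of build GRCh38.p14 and were matched by symbol. Strandedness of the counting is not given in the sources used here, so reads of overlapping genes cannot be told apart.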

Additional observations from a re-analysis of the deposited data

Results flagged for a closer look

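Results stood out in 2 ways: the line difference differed between KO and WT cells by the test of that difference, or 1 library lay far from the other 3 of its group. None of these was explained or traced to a cause here.

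Values given in this paragraph are differences of differences (KO line difference minus WT line difference, log2, limma adjusted p under 0.05), positive where HT29 was relatively higher in KO cells. The value for the targeted gene *CTNNB1* was 1.21. Among epithelial and mesenchymal genes it was -1.81 for *CLDN7*, -1.25 for *CLDN4*, -3.60 for *AXL* and -4.39 for *SNAI2*. Among the leading genes of each direction it was 2.64 for *LGALS4*, 3.82 for *AGR2*, 4.28 for *KRT20*, 5.09 for *CEACAM6*, -3.40 for *TIMP3*, -2.73 for each of *SAA1* and *L1CAM*, -2.51 for *SPARC* and -2.59 for *CADM1*. Gut and secretory genes gave 1.71 for *KLF5*, -2.98 for *ELF3*, 4.43 for *CDX2*, -2.89 for *LYZ* and 9.62 for *REG4*. Keratins gave 1.13 for *KRT19*, 2.22 for *KRT5*, -3.19 for *KRT81* and -2.52 for *KRT7*, and *HOXB9* gave 1.21.

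Genes of the WNT pathway gave -1.60 for *FZD1*, 3.85 for *NKD1*, 8.70 for *SP5*, 5.89 for *APCDD1*, 2.97 for *RNF43*, -1.78 for *CD44*, -2.03 for *CDCA7* and -5.32 for *WNT11*. The largest differences of differences by the naming rule were 10.40 for *CXCR4*, 10.15 for *CST1*, 9.91 for *CST4* and 9.90 for *DACH1*, and in the other direction -13.08 for *IL7R*, -9.71 for *NNMT*, -7.94 for *C3*, -7.90 for *ABLIM3* and -7.83 for *PPARG*. In the remaining lists the values were 6.12 for *IFI27*, -1.73 for *IRF1*, -2.20 for *ABCC3*, -2.10 for *CCND2*, 1.26 for *CDKN1A*, -5.41 for *PLAU*, -4.72 for *COL17A1*, -2.79 for *ITGB6*, -1.33 for *ITGA3*, -5.15 for *MET*, 1.02 for *ERBB2*, -2.17 for *EGFR*, 1.5 for *DUSP6*, -5.74 for *TGFBI* and 8.01 for *BAMBI*. Leaving *CTNNB1* aside, 55 named differences of differences were called. Of these, 55 were also called with the replicate block, 43 with clone as a random effect, 46 with DESeq2 and 42 with edgeR (TMM). With the libraries of a clone summed, 21 were called, and 0 were reversed in any of these fits. Leaving out 1 library kept 47 to 54 of them. Those of *NKD1*, *KRT5*, *CDKN1A*, *CCND2* and *ERBB2* were not called in several of these omissions. *NKD1* was also not called with edgeR (TMM, adjusted p = 0.12), DESeq2 (0.053), pseudocount 0.1 (limma, 0.31), no filter (0.072) or clone as a random effect (0.092).

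Single libraries stood apart for 13 of the named genes, measured by the gap to the nearest library over the range of the 4 and exceeding Dixon's 95% critical value. About 1 in 20 groups is expected to pass this by chance. The critical value was not adjusted for the number of genes and groups looked at, so flags of this number may arise by chance. Library HT29 KO 38 B, the shallowest, was the high one for *EPCAM* (48704 normalized reads), *CRB3* (1069.6), *HOXB7* (5781), *ID1* (8527) and *SMIM22* (2487). Library HT29 KO 38 A was high for *LYZ* (31292), *RNF43* (6346) and *ITGB1* (28782), and HT29 KO 28 A was high for *C3* (10.1, with 0 in the other libraries of the line). In SW480 KO cells, 21 A was high for *FN1* (7996) and low for *CDC45* (1443.6), 21 B was high for *GCNT3* (6.72), and 17 A was high for *WNT11* (44.2).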

How the results depend on the processing

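The difference of *CTNNB1* between the KO lines kept its direction, and more genes were called higher in SW480 than in HT29 in both genotypes, under all alternatives run. Positive and negative differences of differences were near equal in number, and positive ones were the more numerous without a filter (1176 and 1104), without library 21 A (929 and 909) and without 21 B (910 and 898). Several counts moved by more than 1.5 times. With a value of at least 10 required in every library, which removes genes absent from one line, 3699 genes were called between the KO lines (1809 higher in HT29, 1890 in SW480), 189 list genes were called, 3495 genes were called between the WT lines (1888 higher in SW480), and the difference of differences was called for 871 (414 positive, 457 negative). Among the lists, this setting left 3 keratins higher in HT29 KO and 2 in SW480 KO, and 15 and 6 xenobiotic and retinoid genes. Higher in SW480 KO were then 5 WNT targets, 13 WNT pathway components and 10 integrin and laminin genes. The same held for 10 receptor tyrosine kinase genes and 5 TGF-β and BMP genes. Without a filter, 6135 genes were higher in SW480 WT. The difference of differences was called for 444 genes with the libraries of a clone summed (219 positive, 225 negative) and for 1186 with clone as a random effect (568 and 618). In these fits the spread among 2 clones per group counts. Leaving out 1 library gave 6206 to 6750 calls between the KO lines, 6356 to 6521 between the WT lines and 1754 to 2223 differences of differences. Leaving out clone 28, 38, 17 or 21 gave 2955, 2716, 2088 and 2279 genes higher in HT29 KO. *CXCR4* between the KO lines was reversed to 1.97 with DESeq2, 1.97 with edgeR (RLE), 1.99 with edgeR (TMM), 2.95 without clone 28, with -3.17 to 0.31 (without 28 B) when 1 library was left out. *NNMT* was reversed to 0.12 without clone 38. With all KO libraries in limma, *CXCR4* was not called, and *NNMT* was called only with all 4 groups in 1 fit (-2.81, adjusted p = 0.035). The causes were not tested. Of 113 named genes called between the KO lines besides *CTNNB1*, 15 were not called with the libraries of a clone summed, 3 with clone as a random effect and 2 with all 4 groups in 1 fit, and 0 changed direction in these fits. Of 6 pairs of KO clones, 1 had round differences that correlated above 0.1 (range -0.21 to 0.12). In pairs that include a WT clone, the correlation ranged from -0.116 to 0.348, the highest between HT29 KO 38 and HT29 WT 11. Whether the rounds pair the samples therefore stayed undecided. With a replicate block for the round, 2595 genes were higher in HT29 KO and 3886 in SW480 KO, 950 and 963 differences of differences were called, and *KIRREL1* was no longer called (adjusted p = 0.062). Genes that reached 10 normalized reads in fewer than 4 KO libraries were left untested by the filter of the main KO fit. Without a filter, 8827 genes were called between the KO lines.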
